A study of Mus musculus with 14 samples.

Results

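The expression of the genes for the E proteins (Tcf3, Tcf4 and Tcf12) and for their ID inhibitors (Id1, Id2 and Id3) was examined in bulk RNA-seq of T cells sorted from mouse spleen. Members were taken by gene symbol, and all 6 of them were found among the 24091 genes of the deposited counts table and among the 12248 genes tested. The study compared mice that model chronic phase (CP) and blast crisis (BC) of chronic myeloid leukemia (CML). CP CML mice (n = 8) were Mir142+/+BCR-ABL and BC CML mice (n = 6) were Mir142-/-BCR-ABL, on the C57Bl/6j strain. All 14 mice carried BCR-ABL, which was switched on by stopping tetracycline for 3 weeks (tet-off), so no group without BCR-ABL was compared here. The tetracycline-controlled activator was driven by regulatory sequence of SCL (Tal1), a gene of blood stem and progenitor cells, and Mir142 was deleted in the whole animal. Per the study's methods, mice of both sexes were 6 to 10 weeks old, and each library came from 200000 T cells of 1 mouse.

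E proteins are basic helix-loop-helix transcription factors that bind E-box motifs in DNA as homodimers or heterodimers. ID proteins have the helix-loop-helix dimerization domain but lack the basic region that contacts DNA, so an ID-E protein pair cannot bind, and the dose of ID proteins sets how much E protein is active. In T cells, E proteins drive early development, while ID2 is known for effector CD8+ T cells, NK cells and other innate lymphocytes, and ID3 for naive and memory T cells and for restraint of innate-like T cells. Tcf3 (E2A) and Tcf4 (E2-2) are the E protein genes here and not the HMG-box genes Tcf7l1 and Tcf7l2, which have shared those names.

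The libraries held 15703702 to 19914531 counted reads in CP CML and 16145537 to 19399720 in BC CML. Mir142, the deleted gene, had 302 to 650 reads in CP CML and 0 in each of the 6 BC CML libraries, which allows up to 3 reads in a library. Markers of T cell identity (Cd3e, Cd3d, Cd3g, Cd2, Cd5, Lck, Thy1 and Cd28) summed to 3191 to 3709 CPM (reads of a gene scaled to the size of the library, TMM-adjusted) in CP CML and 4179 to 4551 CPM in BC CML, and all 8 were detected. In the test described below, 5 of the 8 were called higher in BC CML, and Cd3e, Cd3d and Lck were not called. The largest differences in mean level were those of Thy1 (775 and 1229 CPM) and Cd3g (452 and 683 CPM). Markers of other cells were present at lower sums. Those of B cells, NK cells, myeloid cells, erythroid cells, red pulp macrophages and the basophil, mast cell and progenitor list had higher medians in BC CML. All CP CML mice carry names of 1 series and all BC CML mice names of another, and the labels do not say what a series marks. Genotype and name series cannot be told apart. In bulk samples, fewer cells of a type and less RNA per cell cannot be told apart either. By flow cytometry, the paper reported smaller shares of naive and regulatory cells among spleen T cells of BC CML mice. It reported larger shares of effector and CD8+ central memory cells there. The part of this T cell subset shift in the results below was not tested.

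Of the 6 genes, 5 were expressed at higher levels in T cells from BC CML mice and 1, Id3, at a lower level (edgeR's quasi-likelihood test, threshold 0.05 after Benjamini-Hochberg adjustment over all genes tested). Changes were common in this comparison: 32.6% of all genes tested were called higher and 32.7% lower. The median log2 fold change (BC CML minus CP CML) was 0.55 over the 6 genes and -0.01 over all genes tested, and the median absolute log2 fold change was 0.63 and 0.28, respectively. The groups did not overlap for Tcf4, Id2 and Tcf12, all higher in BC CML, where 19.3% of all genes tested were higher without overlap. None of the 6 was lower without overlap, against 17.6% of all genes tested.

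**Figure D1:**
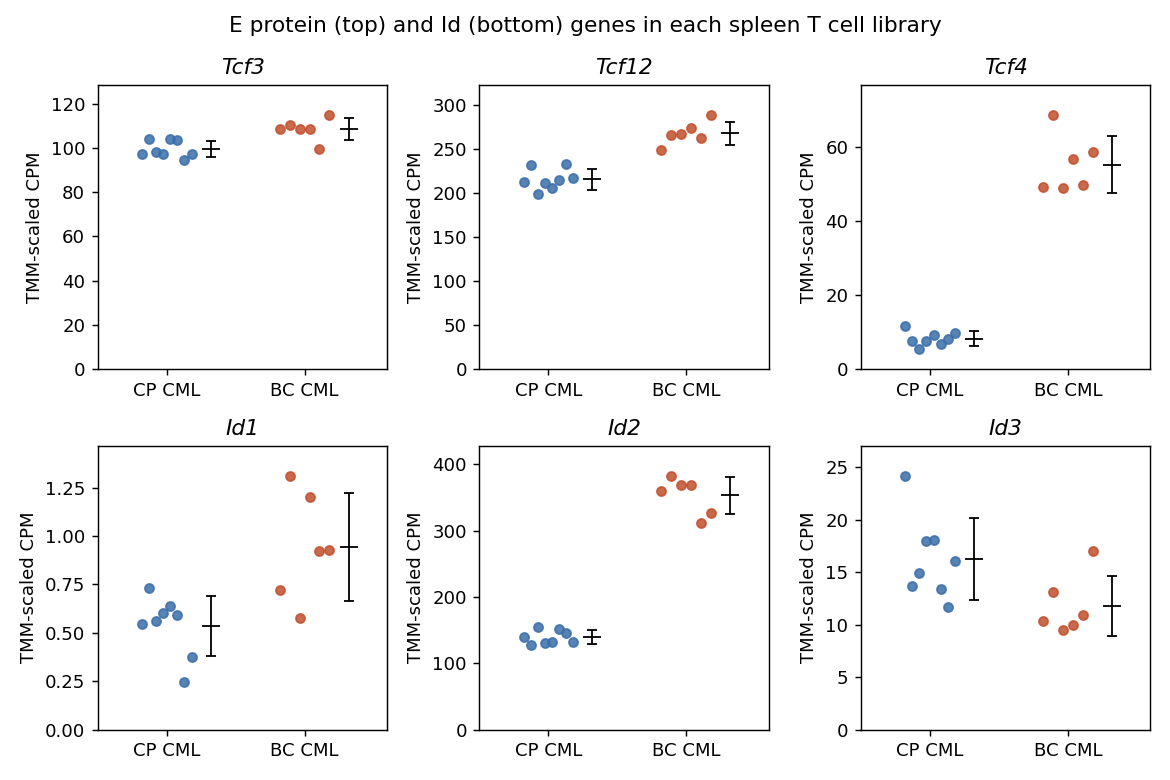
TMM-scaled CPM of the 3 E protein genes (top) and 3 Id genes (bottom) in each library, with 1 point per mouse and the group mean and SD in black. The groups are separate for Tcf12, Tcf4 and Id2 and overlap for Tcf3, Id1 and Id3.

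Among the E proteins, Tcf4 showed the largest change. Tcf4 encodes E2-2, which is best known as the factor that specifies plasmacytoid dendritic cells and is also used by B cells. Its level was 5.46 CPM in the lowest, 7.74 in the median and 11.6 in the highest CP CML library, from 107 to 212 reads. In BC CML it was 48.8 CPM in the lowest, 53.1 in the median and 68.4 in the highest library, from 883 to 1137 reads. Every BC CML library was thus above every CP CML library. The fitted difference was a 6.74-fold increase (log2 fold change 2.75 ± 0.13 SE, quasi-likelihood adjusted p = 3.4e-11), and 98.5% of the genes tested had a smaller absolute log2 fold change.

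Tcf12, which encodes HEB, a partner of E2A in developing thymocytes, rose by less but also without overlap. It was read at 199 CPM in the lowest, 213 in the median and 232 in the highest CP CML library, and at 248, 266 and 288 CPM in BC CML. The increase was 1.24-fold (log2 fold change 0.31 ± 0.04 SE, quasi-likelihood adjusted p = 3.6e-06). Tcf3, which encodes the E2A proteins E12 and E47, differed least of the 6. Its lowest, median and highest levels were 94.6, 97.9 and 104 CPM in CP CML and 99.5, 109 and 115 CPM in BC CML. BC CML replicate 5, whose name carries a suffix that the labels do not explain, was the only BC CML library below the highest CP CML library, and without it the log2 fold change was 0.14 (quasi-likelihood adjusted p = 0.00183). The 1.09-fold difference passed the test (log2 fold change 0.12 ± 0.04 SE, quasi-likelihood adjusted p = 0.0072). It was 0.105 and did not pass with the replicate number as a block (adjusted p = 0.0543), and 25.3% of all genes tested had a smaller absolute change.

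Among the inhibitors, Id2 was by far the most abundant and rose. In CP CML its lowest, median and highest levels were 127, 136 and 155 CPM, from 2065 to 3029 reads. In BC CML they were 311, 364 and 382 CPM, from 5751 to 7043 reads. Every BC CML library was above every CP CML library. The increase was 2.54-fold (log2 fold change 1.34 ± 0.06 SE, quasi-likelihood adjusted p = 1.0e-12), and the coefficient of variation among mice was 7.61% in CP CML and 7.79% in BC CML.

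Id3, the inhibitor induced by T cell receptor signals through the EGR factors, went the other way. Its lowest, median and highest levels were 11.7, 15.5 and 24.2 CPM in CP CML and 9.50, 10.6 and 17.1 CPM in BC CML. The groups overlapped: BC CML replicate 6 (17.1 CPM) was above the CP CML median, and BC CML replicate 2 (13.2 CPM) was above the lowest CP CML library. The level fell to 0.727 of that in CP CML (log2 fold change -0.46 ± 0.16 SE, quasi-likelihood adjusted p = 0.0204). The log2 fold change was between -0.60 and -0.36 with any 1 library left out, and the adjusted p was between 0.00228 and 0.0496.

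Id1, the inhibitor best known from stem and endothelial cells as a target of BMP signals, was close to the limit of detection. It had 4 to 12 reads in the CP CML libraries and 11 to 23 in BC CML. The lowest, median and highest levels were 0.245, 0.578 and 0.733 CPM in CP CML and 0.577, 0.923 and 1.31 CPM in BC CML, with overlap. The 1.73-fold difference passed the test (log2 fold change 0.79 ± 0.25 SE, quasi-likelihood adjusted p = 0.0093). Counts this low carry a large sampling error. Id4, the last gene of the family, had 1 read in 1 of the 14 libraries and was not tested.

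Per length, the order of the 6 genes was nearly fixed across mice. Levels were compared as RPKM, the CPM divided by the exon length in kilobases that the counts table gives, and were highest for Id2, followed by Tcf12 and Tcf3, Id3, Tcf4 and Id1. That order held in all 6 BC CML libraries and in 5 of the 8 CP CML libraries, and the other 3 differed in the order of Tcf3 and Tcf12 alone. In CP CML, Tcf12 (29.5 ± 1.61 RPKM, SD, n = 8) and Tcf3 (28.2 ± 1.07 RPKM) lay within each other's range. In BC CML, Tcf12 was at 36.6 ± 1.77 RPKM (SD, n = 6) and Tcf3 at 30.8 ± 1.42 RPKM, with no overlap. The Id2 level was 110 ± 8.34 RPKM in CP CML and 278 ± 21.7 RPKM in BC CML. The Id3 level was 17.1 ± 4.10 RPKM in CP CML and 12.4 ± 3.02 RPKM in BC CML. Tcf4 stayed below Tcf3 and Tcf12 in every library: it was at 0.926 ± 0.214 RPKM in CP CML and at 6.23 ± 0.874 RPKM in BC CML.

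The balance between the families was described by sums of RPKM in each library, with no test. The 3 Id genes together were 1.86 to 2.48 times the 3 E protein genes in CP CML (median 2.14) and 3.53 to 4.20 times in BC CML (median 4.09). The size of this ratio depends on the length used: with the longest GENCODE transcript of each gene the medians were 1.20 and 2.28, again with no overlap (1.04 to 1.38 and 1.97 to 2.35). Id2 made up 80.8% to 90.2% of the Id sum in CP CML and 93.2% to 96.5% in BC CML. The ratio of Id2 to Id3 was between 4.31 and 9.36 in CP CML and between 14.4 and 29.1 in BC CML. Tcf4 made up 1.11% to 2.25% of the E protein sum in CP CML and 7.56% to 10.3% in BC CML, so Tcf3 and Tcf12 still gave most of the E protein mRNA in both groups. These are levels of mRNA, and the ratio of the proteins was not measured here.

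**Figure D2:**
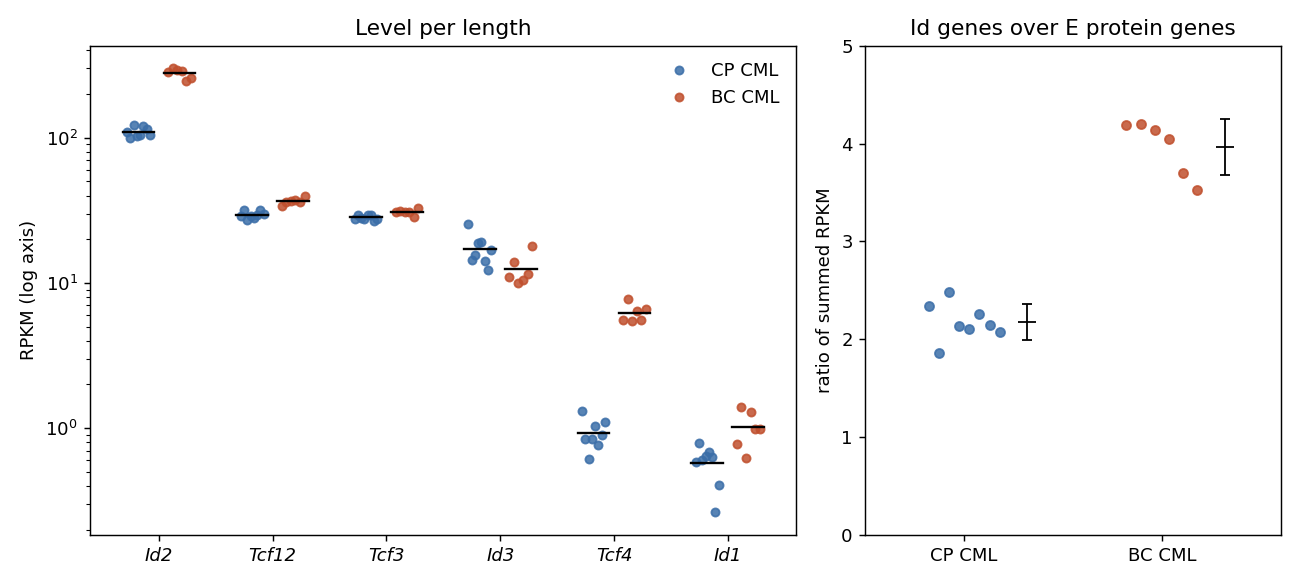
Left, RPKM of each gene in each library on a log axis, ordered by level, with the group mean as a black line. Right, the summed RPKM of Id1, Id2 and Id3 over that of Tcf3, Tcf4 and Tcf12 in each library, with the mean and SD; the 8 CP CML libraries lie between 1.86 and 2.48 and the 6 BC CML libraries between 3.53 and 4.20.

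Because the groups differ in Mir142, the 2 mature miRNAs of the gene and the letters that match their seeds in the 3′UTRs of the members are shown. A miRNA recognizes targets mainly by its seed, bases 2 to 8, which is in capitals in the RefSeq sequences (GRCm38.p6, plus strand of chromosome 11, bases 87756867 to 87756887 for miR-142a-5p and 87756903 to 87756925 for miR-142a-3p).

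mmu-miR-142a-5p: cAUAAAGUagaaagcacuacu

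mmu-miR-142a-3p: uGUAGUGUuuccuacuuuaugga

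The search covered the longest 3′UTR of each gene in GENCODE vM21 (same genome build, mm10) for ACTTTAT and CTTTATA (miR-142a-5p) and for ACACTAC and CACTACA (miR-142a-3p), in the sense of the mRNA. The letters of a pair overlap, and joined they form the 8-base match, which none of the 6 genes held. A 7-base match was found in 4 of the 6 genes, 1 in each, and none was found in Id3 and Tcf3. The windows around those of Id1, Id2 and Tcf12 are printed in the sense of the mRNA, with the match in capitals. They lie at chr2:152737095-152737122 (plus strand), chr12:25094309-25094336 (minus strand) and chr9:71844619-71844646 (minus strand).

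Id1, miR-142a-3p: tctgggaaagACACTACcgcagccaccg

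Id2, miR-142a-5p: ggaaggttttCTTTATAtactattccca

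Tcf12, miR-142a-5p: aaagtttcttACTTTATtttattatatt

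The fourth match, to miR-142a-5p (ACTTTAT), was at bases 4373 to 4379 of the 6007-base 3′UTR of Tcf4. Such matches are frequent: 30.7% of the 11503 tested genes with a 3′UTR held at least 1 match, and the share depended on length. It was 17.8% for 3′UTRs of 500 to 999 bases, the class of Id1 (563 bases), Id2 (785), Id3 (536) and Tcf3 (618). It was 51.0% for 2000 to 3999 bases, the class of Tcf12 (3884 bases), and 74.8% for 4000 bases and more, the class of Tcf4. The matches describe letters and were not tested as binding sites.

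E proteins bind the E-box CANNTG, which reads the same on both strands. The RefSeq promoter of Id2 (GRCm38.p6, chr12:25096043-25096342, minus strand), from 250 bases before to 50 after the start site, is shown as that of the most abundant inhibitor, 5′ to 3′ with its single E-box in capitals.

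Id2 promoter: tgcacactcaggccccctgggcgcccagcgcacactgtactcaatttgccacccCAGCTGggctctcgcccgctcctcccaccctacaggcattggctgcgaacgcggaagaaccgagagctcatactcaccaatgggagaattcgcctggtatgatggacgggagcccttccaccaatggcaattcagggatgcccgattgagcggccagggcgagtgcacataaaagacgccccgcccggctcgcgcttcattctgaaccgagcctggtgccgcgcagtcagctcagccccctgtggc

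The E-box of Id2 was CAGCTG, a form present in 16.3% of the 32851 RefSeq promoters of this length, where 72.3% held CANNTG in any form. The Tcf3 promoter held 1 E-box (CACTTG), and each of the 3 Tcf12 promoters held 1 or 2. The Id3 promoter, which has the same length, held none.

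In the counts table (mm10), Id1 is listed on chromosome 2 from 152736251 to 152737410, Id2 on chromosome 12 from 25093799 to 25096092, and Id3 on chromosome 4 from 136143822 to 136145392. The Id genes are short, with spans of 1.16 to 2.29 kb. Tcf3 is listed on chromosome 10 from 80409165 to 80433653, Tcf12 on chromosome 9 from 71844252 to 72111819, and Tcf4 on chromosome 18 from 69344492 to 69687967. The counts sum all exons of a gene, so the long and short isoforms of Tcf4 and Tcf12, and E12 and E47 of Tcf3, cannot be told apart. No gene listed in the table lies across a member, except Eno1b, a retrotransposed gene with 33 to 76 reads whose listed span takes in Id3 and much of chromosome 4.

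The partners and cofactors of E proteins include the class II helix-loop-helix factors that pair with them, the LMO-LDB1 bridge, the ETO corepressors and the histone acetyltransferases p300 and CBP. Of 15 genes, 9 were tested: 6 rose, 2 fell and 1 was not called (median log2 fold change 0.16), against 32.6% of all genes tested called higher and 32.7% lower. Some of these genes are used by blood progenitors and myeloid cells, whose summed markers were higher in BC CML without overlap. Basophil, mast cell and progenitor markers summed to 19.3 to 49.6 against 4.76 to 10.6 CPM, and most of this was Kit. Myeloid markers summed to 523 to 1328 against 60.1 to 434 CPM. The part of these cells in this list's change was not tested. Ep300, which encodes p300, rose from 336 ± 26.3 to 375 ± 22.1 CPM (mean ± SD, n = 8 and 6; log2 fold change 0.16 ± 0.05 SE, quasi-likelihood adjusted p = 0.0116), and did not pass with the replicate block (adjusted p = 0.0655). Crebbp, which encodes its paralog CBP, fell from 215 ± 14.1 to 184 ± 12.7 CPM (log2 fold change -0.22 ± 0.05 SE, adjusted p = 7.3e-04 by the same test). Ldb1, the LIM-domain-binding scaffold, fell from 298 ± 16.5 to 256 ± 8.39 CPM, with no overlap. Cbfa2t2, an ETO corepressor, rose from 34.2 ± 2.16 to 37.5 ± 1.94 CPM with overlap (adjusted p = 0.0225 by the same test), and did not pass without BC CML replicate 6 (adjusted p = 0.0712). The genes not tested were Id4, Tal2, Ascl2, Msc, Lmo1 and Runx1t1, none of which had more than 11 reads in a library.

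The targets of E proteins in the T lineage did not move in 1 direction. Of 12 genes 9 were tested, with 4 higher, 4 lower and 1 not called (median log2 fold change -0.05), against the same shares of all genes tested. In the same BC CML libraries, the marker sums of myeloid cells, of NK cells and of the basophil, mast cell and progenitor list were higher without overlap. Of 8 B cell markers, 6 were called higher. The part of these cells, and of the T cell subset shift that the paper reported, was not tested. Cd4, the coreceptor of helper T cells, fell from 404 ± 25.2 to 243 ± 45.8 CPM (log2 fold change -0.73 ± 0.09 SE, quasi-likelihood adjusted p = 5.0e-06). Socs3, an inhibitor of cytokine signals, fell from 450 ± 41.8 to 266 ± 55.6 CPM, also with no overlap. Notch1, the receptor of T lineage commitment, fell from 406 ± 35.7 to 328 ± 11.5 CPM, with overlap. Foxo1 was at 375 ± 18.9 and 361 ± 25.5 CPM and was not called (log2 fold change -0.05 ± 0.05 SE, adjusted p = 0.327 by the same test). The thymic targets were near 0: Ptcra, the pre-T cell receptor chain, had 0 to 3 reads, and the recombinase genes Rag1 and Rag2 had at most 1 read in CP CML and up to 30 and 5 reads in BC CML, so none of the 3 was tested.

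Signals upstream of the Id genes come from BMP receptors through SMAD1, SMAD5 and SMAD9 with SMAD4, from EGR factors and from STAT5. Of 15 genes 13 were tested, with 5 higher, 4 lower and 4 not called (median log2 fold change 0.03), against the same shares of all genes tested. The marker sums of myeloid cells, of NK cells and of the basophil, mast cell and progenitor list (mostly Kit) were higher in the same BC CML libraries. The part of these cells was not tested. Smad5 rose from 97.6 ± 6.26 to 154 ± 7.40 CPM, with no overlap (log2 fold change 0.65 ± 0.04 SE, quasi-likelihood adjusted p = 7.7e-10). Smad4, the shared SMAD, was at 152 ± 11.1 and 155 ± 10.4 CPM and was not called (adjusted p = 0.569 by the same test). Smad7, an inhibitory SMAD, fell from 99.8 ± 9.52 to 77.0 ± 8.61 CPM. Stat5b fell from 261 ± 12.3 to 189 ± 12.1 CPM, with no overlap (log2 fold change -0.47 ± 0.04 SE, adjusted p = 4.3e-08 by the same test). Smad6 and Smad9 were not tested, with at most 3 reads in a library.

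The effector genes of ID2-high T cells were mostly higher: all 10 were tested, with 8 higher and 2 lower (median log2 fold change 1.03), against 32.6% of all genes tested called higher. NK cells use several of these genes too, and the summed NK cell markers were 56.9 to 77.3 CPM in CP CML and 176 to 299 CPM in BC CML, with 4 of the 4 tested called higher. The part of NK cells, and of the larger effector share of T cells that the paper reported, in this list's change was not tested. Gzmb, which encodes the cytotoxic protease granzyme B, rose from 48.8 ± 11.7 to 268 ± 79.4 CPM (log2 fold change 2.46 ± 0.22 SE, quasi-likelihood adjusted p = 4.5e-07). Tbx21, which encodes the effector factor T-bet, rose from 38.5 ± 6.45 to 83.8 ± 9.57 CPM, also with no overlap. The chemokine gene Ccl5 rose from 111 ± 15.2 to 144 ± 34.0 CPM with overlap (log2 fold change 0.37 ± 0.13 SE, adjusted p = 0.0219 by the same test). It did not pass without BC CML replicate 2 (adjusted p = 0.0600), without BC CML replicate 4 (0.0604) or with the replicate block (0.0534). Prf1, which encodes perforin, fell from 54.8 ± 4.72 to 48.4 ± 4.07 CPM (log2 fold change -0.18 ± 0.06 SE, adjusted p = 0.0189 by the same test), and it did not pass without BC CML replicate 6 (adjusted p = 0.0516).

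The naive and memory genes of ID3-high T cells were mostly lower: all 11 were tested, with 2 higher, 7 lower and 2 not called (median log2 fold change -0.67), against 32.7% of all genes tested called lower. The marker sums of NK cells and myeloid cells were higher in BC CML without overlap, and 6 of 8 B cell markers were called higher in the same libraries. The part of these cells, and of the smaller naive share of T cells that the paper reported, in this list's change was not tested. Tcf7, which encodes the HMG-box factor TCF-1, fell from 1971 ± 144 to 1239 ± 133 CPM (log2 fold change -0.67 ± 0.06 SE, quasi-likelihood adjusted p = 7.1e-08). Il7r, the interleukin-7 receptor, fell from 1107 ± 171 to 552 ± 138 CPM (0.499 of the CP CML level in the fit, adjusted p = 3.0e-05 by the same test). Neither of these genes overlapped between groups. Foxo1, which stands in this list too, was not called.

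The innate-like T cell genes were mixed. All 8 were tested, with 4 higher, 1 lower and 3 not called (median log2 fold change 0.72), against 32.6% of all genes tested called higher and 32.7% lower. The summed NK cell markers, of which Klrb1c is one, moved with this list (56.9 to 77.3 CPM in CP CML and 176 to 299 CPM in BC CML), and the part of NK cells was not tested. Klrb1c, which encodes the NK1.1 receptor, rose from 49.7 ± 6.69 to 146 ± 40.8 CPM (log2 fold change 1.56 ± 0.15 SE, quasi-likelihood adjusted p = 5.7e-07). The chemokine receptor gene Cxcr6 rose from 56.1 ± 10.7 to 121 ± 26.4 CPM, and Maf from 58.6 ± 8.82 to 85.5 ± 12.4 CPM, both with no overlap. Rora, a nuclear receptor of innate-like and type 17 cells, was at 84.2 ± 3.63 and 82.6 ± 3.87 CPM and was not called (adjusted p = 0.538 by the same test). Over the 6 genes and all lists together, 54 of the 64 genes tested were called, where 65.2% of all genes tested were called in either direction.

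**Figure D3:**
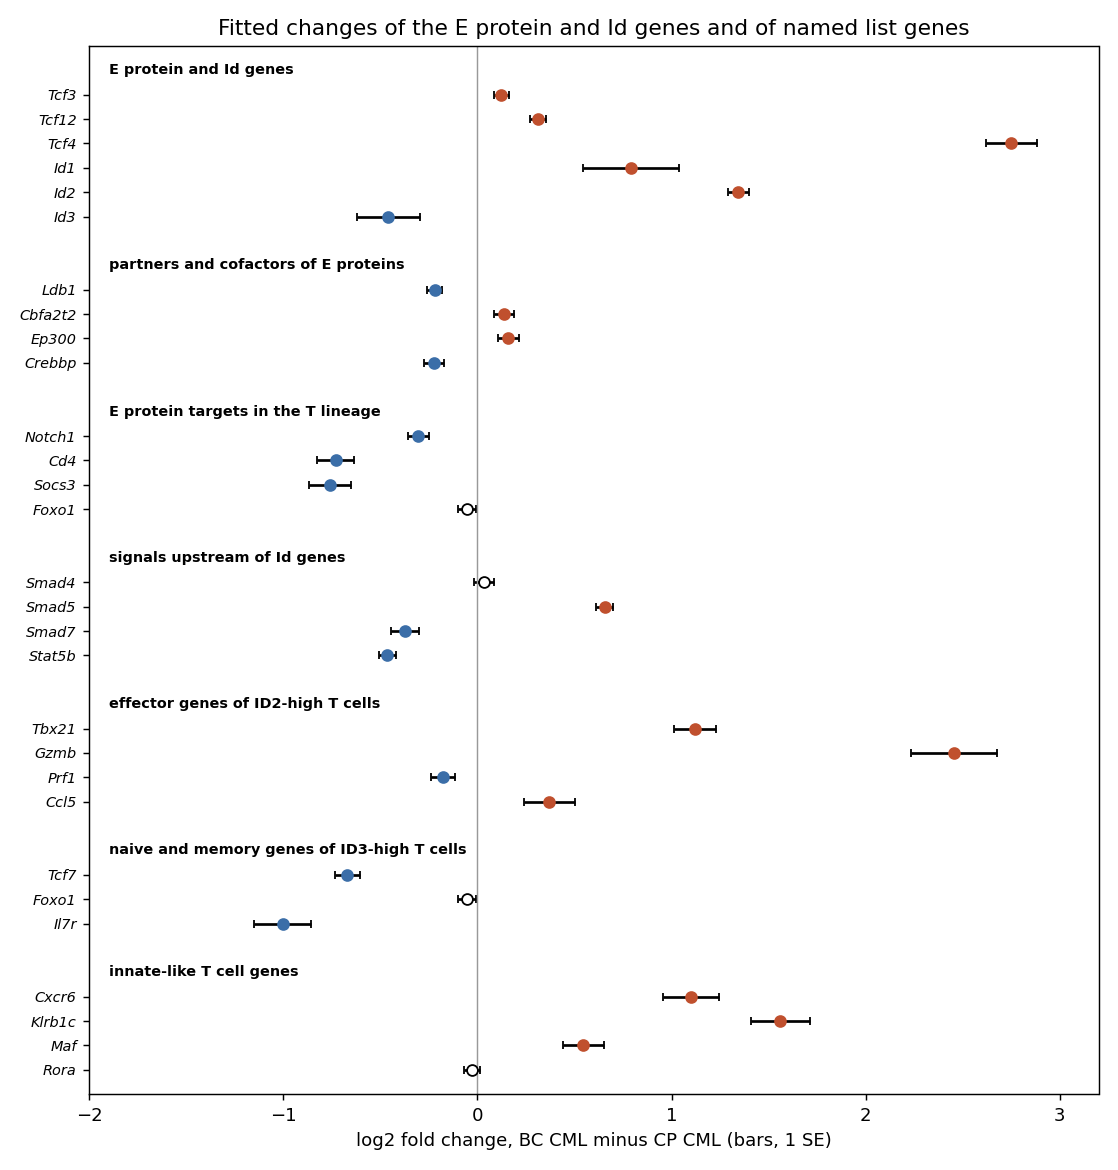
Log2 fold change (BC CML minus CP CML) with its SE for the 6 genes and for the most abundant tested genes of each list, as named in the text; red, called higher; blue, called lower; white, not called. Tcf4 (2.75) and Gzmb (2.46) lie farthest to the right and Il7r (0.499 of the CP CML level) farthest to the left.

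Cells other than T cells also use these genes, so their markers are given beside the members. The 8 B cell markers summed to 60.7 to 180 CPM in CP CML and 103 to 511 CPM in BC CML, with 6 of 8 called higher and none at 0. The BC CML library with the lowest B cell sum, replicate 3 (103 CPM, inside the CP CML range), had 48.8 CPM of Tcf4. The CP CML library with the highest B cell sum, replicate 1 (180 CPM), had 11.6 CPM of Tcf4. Within each group, Tcf4 was lowest in the library with the lowest B cell sum (5.46 CPM in CP CML replicate 3 and 48.8 CPM in BC CML replicate 3), and in CP CML it was highest in the library with the highest sum. In BC CML the library with the highest sum, replicate 6, had 58.5 CPM and the highest Tcf4, 68.4 CPM, was in replicate 2. Id3 was highest within each group in the library with the highest B cell sum (24.2 CPM in CP CML replicate 1 and 17.1 CPM in BC CML replicate 6), and the part of B cells in the Tcf4 and Id3 results was not tested.

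The 6 plasmacytoid dendritic cell markers summed to 60.7 to 77.8 CPM in CP CML and 36.6 to 51.8 CPM in BC CML, and nearly all of this was Pacsin1 (60.0 to 77.2 and 33.7 to 46.7 CPM). The receptor gene Siglech, a defining marker, was at 0 to 0.273 CPM in CP CML and 0.472 to 1.39 CPM in BC CML, and Cox6a2 at 0 to 0.164 and 0.555 to 2.01 CPM. Klk1 and Smim5 stayed below 0.5 CPM in all libraries. Pacsin1 was called lower in BC CML, so the sum moved against Tcf4, while Siglech, Cox6a2 and Klk1b27 were higher without overlap at levels near 0. The part of these cells in the Tcf4 result was not tested.

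The 5 NK cell markers summed to 56.9 to 77.3 CPM in CP CML and 176 to 299 CPM in BC CML, with all 4 tested markers called higher and Klra4 at 0 in every library. Most of the sum was Klrb1c (mean 49.7 CPM in CP CML and 146 CPM in BC CML), which is also in the innate-like list. Ncr1, the defining receptor of NK cells, was at 1.38 to 4.40 CPM in CP CML and 5.25 to 22.1 CPM in BC CML. The markers did not rise in step: Klra8 had 0 to 5 reads in CP CML and 185 to 326 in BC CML (106-fold). Ncr1 rose 4.03-fold and Klre1 3.99-fold. Within BC CML, Id2 was lowest in the libraries with the lowest NK sums, replicates 6 and 5 (327 and 311 CPM, at sums of 176 and 179 CPM). In the other BC CML libraries Id2 was 360 to 382 CPM at NK sums of 201 to 299 CPM, with 368 CPM at the highest sum (replicate 4). Within CP CML it was 131 CPM at the lowest NK sum (replicate 5) and 132 CPM at the highest (replicate 8). The highest Id2 of CP CML, 155 CPM in replicate 3, stood at an NK sum of 60.5 CPM. The part of NK cells in the Id2 result was not tested.

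The 8 myeloid markers summed to 60.1 to 434 CPM in CP CML and 523 to 1328 CPM in BC CML (7 of 8 called higher). Within BC CML, Tcf4 was at 49.0 and Id2 at 360 CPM in replicate 1, which had the lowest myeloid sum, and at 58.5 and 327 CPM in replicate 6, which had the highest. In CP CML replicate 8, which had the highest myeloid sum of its group, Tcf4 was at 9.75 CPM and Id2 at 132 CPM. Basophil, mast cell and progenitor markers summed to 4.76 to 10.6 CPM in CP CML and 19.3 to 49.6 CPM in BC CML (2 of the 4 tested called higher). Most of this sum was Kit (mean 3.77 CPM in CP CML and 25.4 CPM in BC CML). Kit and Cpa3 were called higher, and Mcpt8 and Gata2 were not called. Red pulp macrophage markers summed to 109 to 196 and 150 to 466 CPM (5 of 6 called higher, all tested). Erythroid markers summed to 21.5 to 69.3 and 47.2 to 75.7 CPM (1 of the 5 tested called higher). Endothelial markers summed to 143 to 180 and 130 to 184 CPM, almost all from Pecam1, the 1 marker tested, which was not called, with Emcn at 0 in every library. The part of these cells in the results was not tested.

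**Figure D4:**
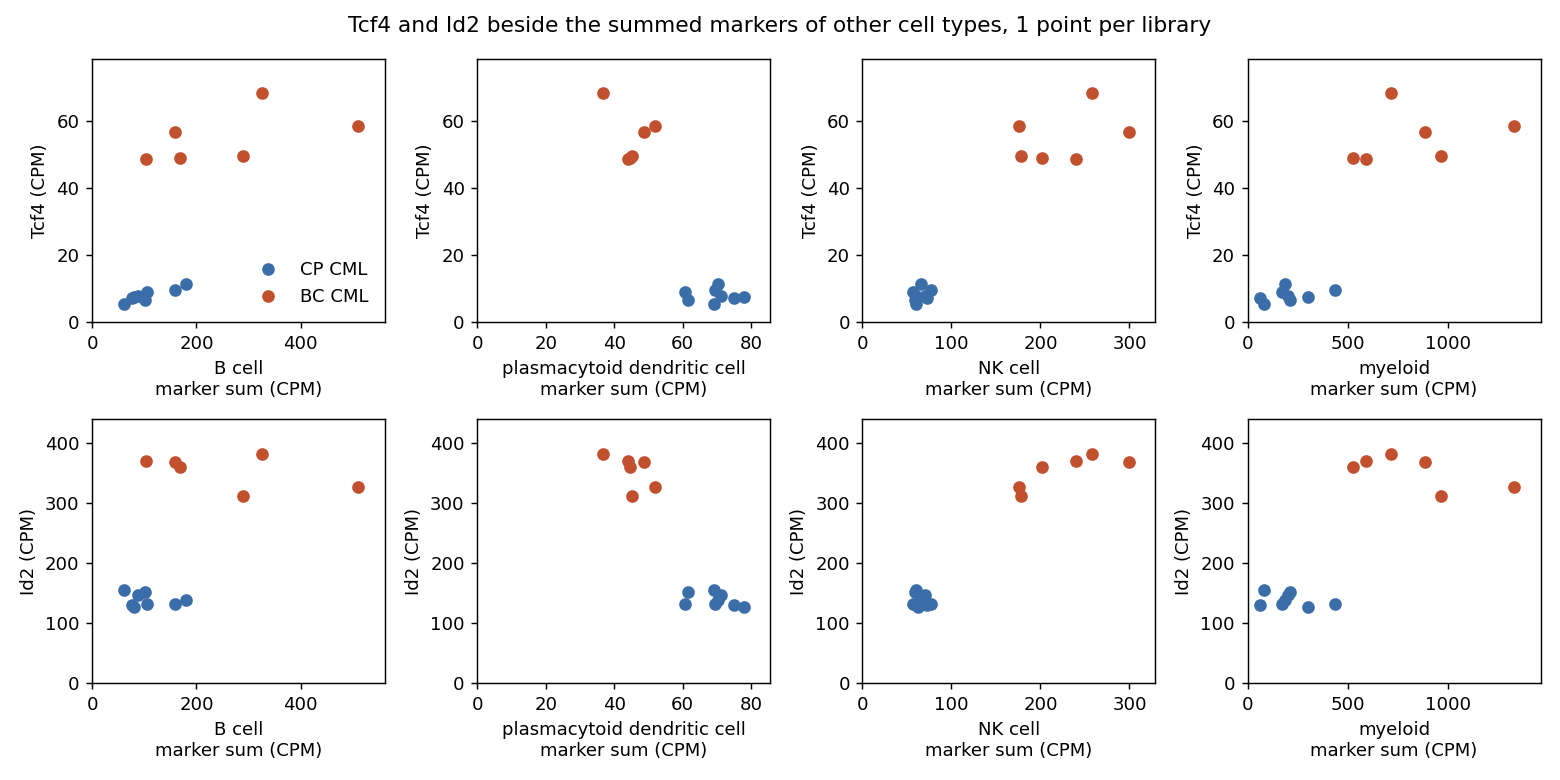
CPM of Tcf4 (top) and Id2 (bottom) against the summed CPM of B cell, plasmacytoid dendritic cell, NK cell and myeloid markers, 1 point per library. The B cell sums run from 60.7 to 180 CPM in CP CML and from 103 to 511 CPM in BC CML and overlap, and the sums of the other 3 lists do not.

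For each of the 6 genes, the 2 genes with the most similar profile over the 14 libraries were found by the root mean square (RMS) difference of log2 CPM, after each gene's mean had been subtracted. For Tcf4 they were Evi5 (RMS 0.175, 4.58 CPM in CP CML and 34.9 in BC CML) and the pseudogene Art2a-ps (0.193). For Tcf12 they were Tnks (0.0411), which encodes tankyrase, and Acadl (0.0459), and for Tcf3 Mbp (0.0355) and C330007P06Rik (0.0366). For Id2 they were Tnfsf10 (0.0953), which encodes the death ligand TRAIL, at 76.3 CPM in CP CML and 192 in BC CML, and Abcb10 (0.112). For Id3 they were Fam104a (0.212) and Cbx2 (0.222). For Id1 they were Tal1 (0.271), an E protein partner at 1.09 and 1.82 CPM, and Ccrl2 (0.274). No member was among the nearest genes of another, and this likeness carries no test.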

How the data were processed

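Bulk RNA-seq of spleen T cells was analysed (8 CP CML and 6 BC CML mice, 1 library per mouse, paired reads of 101 bases, NovaSeq). The authors trimmed reads with Trimmomatic and FASTP, aligned them to mm10 with STAR 2.6.0, counted them with HTSeq 0.11.1 and deposited raw read counts per gene. The annotation and strand setting are not given in the sources used here. Deposited columns were matched to samples by mouse name.

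Genes were kept by filterByExpr on group (minimum count 10; 12248 genes), scaled by TMM and fitted by the robust quasi-likelihood method of edgeR 4.0.16 (with limma 3.58.1, R 4.3.3), with genotype as the single term and Benjamini-Hochberg adjustment over these genes at 0.05. The SE was the log2 fold change over the square root of F. CPM are TMM-scaled; profiles used log2 CPM with prior count 2. Alternatives were the likelihood ratio test that the study's methods name, DESeq2 (1.42.0), no TMM (RLE or the library size), no low-count filter or one that asks for over 1 CPM in 6 samples, a replicate block, each sample left out, and, for levels, the longest GENCODE transcript. On simulated counts with 200 genes changed by 1 log2 unit, the fit recovered 178 and called 13 others. Far fewer genes were changed there than were called in the real data (7986).

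Replicate pairs differed by more than sampling noise (chi-square per degree of freedom 3.15 to 24.2), so none was counted as a repeat. Groups share replicate numbers 1 to 6 but not animals.

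The members and gene lists were chosen with earlier results of these data known, from general knowledge. Named genes were the 6 members, Mir142, the 4 tested genes of each list with the highest mean log2 CPM, untested list genes, and the 2 nearest profiles of each member; 1 list gene that the rule names is not reported here. P-values measure the spread between mice.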

Additional observations from a re-analysis of the deposited data

Results flagged for a closer look

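BC CML replicate 2 had the smallest total of its group, 16145537 reads, where the next had 18319039. The gap was 0.668 of the group's range, past Dixon's critical value for 6 samples. This was the only one of 32 groups of values examined (totals, the 6 genes and 9 marker sums in each genotype), and chance alone flags about 1 in 20. BC CML replicate 2 also had the highest Tcf4 (68.4 CPM), Id2 (382 CPM) and Id1 (1.31 CPM) of its group.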

How the results depend on the processing

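The alternatives kept the direction of all 6 genes and, but for Tcf3 with the replicate block, their side of the threshold. With the replicate block (12 samples with numbers 1 to 6), Tcf3 had a log2 fold change of 0.105 and did not pass (adjusted p = 0.0543), the genes called went from 7986 to 7280 and the genes called among the 6 and the lists from 54 to 49. The correlations of same-numbered samples' deviations, -0.27 to 0.36, do not show that the numbers pair the mice. Among single list genes, Ep300 and Ccl5 did not pass with the block (adjusted p = 0.0655 and 0.0534), nor Cbfa2t2 and Prf1 without BC CML replicate 6 (0.0712 and 0.0516) or Ccl5 without BC CML replicate 2 or 4 (0.0600 and 0.0604). Without 1 library at a time, log2 fold changes were 2.68 to 2.84 for Tcf4, 0.29 to 0.33 for Tcf12, 0.11 to 0.14 for Tcf3, 1.32 to 1.38 for Id2, -0.60 to -0.36 for Id3 and 0.68 to 0.90 for Id1, all past the threshold. The filter of more than 1 CPM removed Id1. With the longest GENCODE transcript as length, Id2 was at 70.6 and 179 RPKM, Tcf12 at 34.2 and 42.4 and Tcf3 at 33.8 and 36.8, in the same order. The causes were not tested. Depth limits Id1 most, at 4 to 23 reads per library.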

Other observations

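Some list genes outside the naming rule also moved, and they were chosen after their values were seen. All 4 BMP and activin receptor genes of the upstream list rose without overlap between groups, as did 19.3% of all genes tested. In the same libraries, the marker sums of myeloid cells, of NK cells and of the basophil, mast cell and progenitor list (mostly Kit) were higher without overlap. The part of these cells was not tested. Bmpr2, the type II BMP receptor, was at 14.6 to 19.8 CPM in CP CML and 96.7 to 119 CPM in BC CML, a 6.09-fold increase (log2 fold change 2.61 ± 0.06 SE, quasi-likelihood adjusted p = 9.9e-16). Acvr2a rose 3.18-fold, Acvr1 2.70-fold and Bmpr1a 2.42-fold. Smad1 fell (log2 fold change -0.41 ± 0.08 SE). Among E protein partners and targets, Lmo2 rose 3.88-fold and Gfi1 1.90-fold, both without overlap. Hes1 was near the limit of detection in CP CML, with 2 to 26 reads against 34 to 57 in BC CML. It passed the low-count filter only through its BC CML levels, so its separation carries no weight. Cxcr5, the chemokine receptor of follicular helper T cells, fell without overlap to 0.445 of its CP CML level (quasi-likelihood adjusted p = 3.3e-04).

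Some called genes went against the more frequent direction in their list. Eomes, the T-box factor of memory and cytotoxic cells, was at 60.3 to 99.0 CPM in CP CML and 231 to 299 CPM in BC CML, while 7 of the 11 naive and memory genes fell. Bcl6, the factor of follicular helper T cells, rose too (log2 fold change 0.58 ± 0.08 SE, quasi-likelihood adjusted p = 8.4e-06). In the effector list, where 8 of 10 rose, Prdm1, which encodes BLIMP1, fell (log2 fold change -0.88 ± 0.11 SE, quasi-likelihood adjusted p = 2.0e-06), as did Prf1. Zbtb16, which encodes PLZF, the defining factor of innate-like T cells, was at 7.66 to 12.1 CPM in CP CML and 1.08 to 4.24 CPM in BC CML (log2 fold change -2.28 ± 0.24 SE, quasi-likelihood adjusted p = 3.0e-07), while 4 of the 8 genes of its list rose.

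The HMG-box genes that have shared names with E proteins were low. Tcf7l1 had 22 to 60 reads in a library and fell (log2 fold change -0.59 ± 0.19 SE, quasi-likelihood adjusted p = 0.0126), and Tcf7l2 had 20 to 86 reads and was not called (log2 fold change 0.53 ± 0.29 SE, adjusted p = 0.125).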
